A study of Mus musculus with 9 samples.

Results

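The nuclear genes for subunits of the oxidative phosphorylation complexes were followed in RNA from mouse spinal cord. They were chosen by gene symbol (Nduf with a, b, c, s or v and a digit, Sdha to Sdhd, Uqcr, Cox4 to Cox8 with a, b or c, and Atp5, without pseudogenes) and by level, a value of 0.5 or more in at least 3 of 9 libraries. The deposited table holds 14831 genes, of which 80 matched by symbol and 79 also by level, and none of the 79 has a value at the table's lower bound. Complex I has 37 of them, complex II 4, complex III 8, complex IV 13 and complex V 17. The gene that failed on level was Cox7b2, a testis isoform of complex IV, at 0.653 in 1 control ASO library and at the bound of 0.1 in the other 8. Just inside the rule were Ndufa4l2, with 0.515 to 1.06 over the 9 libraries, and Cox8b, with 0.727 to 1.14. The symbol rule leaves out Ndufab1, Cox4i1, Cox4i2 and Cyc1, which are subunits as well, and of 13 mitochondrially encoded subunits 0 are in the table.

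All donors of spinal cord were female, wild-type in genotype, of the strain C57Bl/6 and 10 weeks old, and the tissue was taken 2 weeks after an injection of 10 µl into a brain ventricle, the right lateral one. The strain field is empty for 1 control ASO library, whose source field names the same strain. The saline group received no oligonucleotide, the control ASO group 500 µg of oligonucleotide 456835 and the C9orf72 ASO group 500 µg of oligonucleotide 571883, which is directed at mouse C9orf72. Each of the 3 groups has 3 libraries, and an antisense oligonucleotide (ASO) is a short modified nucleic acid that pairs with a chosen RNA and lowers its level. The design asks what a loss of C9orf72 RNA does in the spinal cord, in mice that carry no C9orf72 repeat expansion. Whether libraries of 1 group are separate animals is not said in the labels, so the p-values measure only how these samples spread, which may be technical.

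Oxidative phosphorylation takes place at the inner mitochondrial membrane. Complexes I and II pass electrons from NADH and succinate to ubiquinone, complex III passes them to cytochrome c and complex IV to oxygen, and complexes I, III and IV pump protons that drive ATP synthesis by complex V. Complex II is made of nuclear gene products alone, while the others combine nuclear and mitochondrially encoded subunits. Neurons, with long axons and constant ion pumping, depend heavily on this ATP, and many nuclear subunit genes are known to carry promoter motifs for the factors NRF1, GABP (an ETS family factor) and YY1.

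Values are RPKM, a read density corrected for transcript length and library size. The steps between low values were best matched by 90.1 to 123.3 M reads per library. In this estimate only 45.7% to 66.7% of short genes lay within 0.1 of a whole read. The next best depth matched nearly as well, with scores of 0.547 against 0.555 in C9orf72 ASO replicate 2 and 0.628 against 0.694 in control ASO replicate 2. The depth is therefore not settled. C9orf72, the target, had 10.5, 11.4 and 11.5 RPKM after saline, 11.2, 11.7 and 10.6 after the control ASO and 2.68, 3.4 and 3.12 after its own ASO. It fell by 1.84 on the log2(RPKM + 0.1) scale against the control ASO (limma, SE 0.08, adjusted p = 1.83e-06). The summed level of 8 neuron markers was 3147 to 3375 RPKM after saline, 3366 to 3516 after the control ASO and 3012 to 3355 after the C9orf72 ASO. All 7 oligodendrocyte and all 6 astrocyte markers were in the table too, and of 7 skeletal muscle markers Ckm, Myh1, Myh4, Myl1 and Tnnt3 were not. The 7 microglia markers summed to 112 to 133, 116 to 126 and 151 to 160 RPKM in the same order of groups, and the 5 endothelial markers to 44.5 to 56.0, 32.1 to 44.6 and 34.8 to 38.1. The C9orf72 ASO range lay above both other groups for the microglia list and below saline for the endothelial list. For the neuron list it lay only just below the control ASO, the closest values being 3355 and 3366 RPKM. The part of these cell types in the subunit levels was not tested. Saline replicate 2 stood apart from the other saline libraries: it was the lowest of the 9 libraries for 54 of the 79 subunits, and 1 subunit was above its own mean there.

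The upstream sequences of 4 subunit genes are shown because all 3 C9orf72 ASO libraries lay above all other 6 for them. This held for 6 members, or 7.59%, against 2.82% of all genes tested: Ndufa6, Sdhb, Uqcrb, Cox6c, Atp5f1 and Atp5j. The first 2 named here carry the NRF1 motif while Atp5f1 and Atp5j do not. In the window counted below, which adds 50 bases after the start, Sdhb also had the ETS letters and Atp5f1 the YY1 letters. For Uqcrb and Cox6c no promoter window was available. Each line gives the 250 bases before the annotated start, 5′ to 3′ on the gene's strand, from RefSeq (GRCm38.p6), with the NRF1 core in capitals.
Ndufa6, chr15:82354292-82354541, minus strand: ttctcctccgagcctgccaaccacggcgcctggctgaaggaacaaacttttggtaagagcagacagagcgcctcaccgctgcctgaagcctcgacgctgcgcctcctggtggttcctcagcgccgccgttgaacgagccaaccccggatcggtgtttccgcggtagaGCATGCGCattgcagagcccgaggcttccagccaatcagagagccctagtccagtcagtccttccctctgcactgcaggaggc
Sdhb, chr4:140961021-140961270, plus strand: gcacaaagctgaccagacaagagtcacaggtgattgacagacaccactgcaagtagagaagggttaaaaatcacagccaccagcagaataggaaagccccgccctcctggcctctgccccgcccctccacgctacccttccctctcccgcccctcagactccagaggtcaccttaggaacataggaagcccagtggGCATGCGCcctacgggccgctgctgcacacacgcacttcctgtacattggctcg
Atp5f1, chr3:105959264-105959513, minus strand: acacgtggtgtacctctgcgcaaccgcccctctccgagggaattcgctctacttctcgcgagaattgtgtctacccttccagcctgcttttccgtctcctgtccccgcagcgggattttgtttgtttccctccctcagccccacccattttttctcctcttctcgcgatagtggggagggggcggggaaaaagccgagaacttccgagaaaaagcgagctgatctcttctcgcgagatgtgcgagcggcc
Atp5j, chr16:84835626-84835875, minus strand: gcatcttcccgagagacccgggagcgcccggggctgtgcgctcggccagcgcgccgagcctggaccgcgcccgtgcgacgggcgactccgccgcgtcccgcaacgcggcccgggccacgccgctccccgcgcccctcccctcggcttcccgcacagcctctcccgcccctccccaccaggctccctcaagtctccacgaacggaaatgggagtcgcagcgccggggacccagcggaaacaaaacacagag

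The motif is spelled GCGCATGC, read here on the opposite strand as GCATGCGC, and it begins at position -83 before the Ndufa6 start and at -54 before the Sdhb start. Among the subunits, 67 of 79 could be matched to a promoter window of 300 bases (250 before and 50 after the start), 2 of them through a synonym. On either strand, the NRF1 core was in 10 of the 67 windows, or 14.9%, against 2.8% of all 27025 RefSeq promoter windows of that length. The ETS letters CCGGAAG were in 15 windows (22.4% against 9.12%) and the YY1 letters AAGATGGC in 9 (13.4% against 2.88%). The TATAAA box was in 6 windows (8.96% against 14.2%) and CCAAT in 29 (43.3% against 37.9%). At least 1 of the NRF1, ETS and YY1 motifs was in 29 windows, NRF1 and ETS together in 5, and none of the 3 in 38. These are matches of letters only, and 1 stretch can hold the ETS and YY1 letters in part together, since both contain AAG. All windows come from the first listed start of a gene symbol. Those compared with were not limited to the genes tested in spinal cord. The shares therefore cannot separate subunit genes from expressed genes in general.

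Subunit RNAs were abundant. Together the 79 genes held 1.94% of the RPKM sum of the genes tested. That sum is dominated by the gene with the highest value, which held 18.99% to 23.37% of the RPKM of a library. Member means over all libraries ran from 0.829 RPKM (Ndufa4l2) to 457 RPKM (Cox5b), and the median member had 74.5 RPKM. Per transcript length, the median member was highest in complexes V (136 RPKM) and IV (134), followed by III (74.4), I (64.5) and II (59.5). Many of these genes have processed pseudogenes, and how reads that fit several places were counted is not given in the sources used here, so their levels carry that uncertainty.

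**Figure D1:**
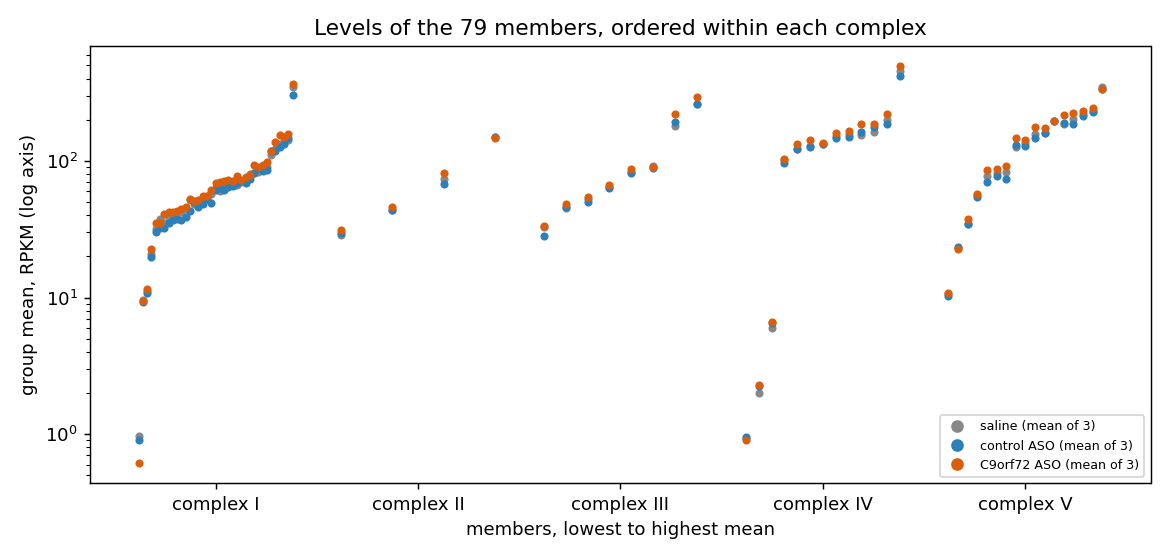
Group mean level of each of the 79 subunit genes (vertical axis, RPKM, log scale), ordered from the lowest to the highest within each complex (horizontal axis), with colours for the 3 groups and each point the mean of 3 libraries. The 3 group means of a gene lie close together next to the range over genes, from 0.829 RPKM for Ndufa4l2 to 457 for Cox5b as means over all libraries.

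The sum of the 79 levels gives the simplest comparison of the groups. It was 8304, 6842 and 8380 RPKM in the 3 saline libraries, 7603, 7569 and 7602 after the control ASO, and 8177, 8362 and 8814 after the C9orf72 ASO. All 3 C9orf72 ASO libraries were above all 3 control ASO libraries, while saline replicates 1 and 3 lay within the C9orf72 ASO range and saline replicate 2 lay below every other library. In each complex the C9orf72 ASO sums lay above the control ASO sums, though for complex II only just. For complex I the sums were 2532, 2533 and 2447 RPKM after the control ASO and 2749, 2735 and 2978 after the C9orf72 ASO. For complex II they were 298, 281 and 296 against 299, 310 and 310, and of its 4 genes only Sdhb had ASO groups that did not overlap. For complex III they were 807, 807 and 822 against 861, 904 and 925. For complex IV they were 1695, 1717 and 1770 against 1859, 1937 and 2016, and for complex V 2270, 2230 and 2267 against 2409, 2475 and 2584. The saline sums, 2815, 2242 and 2807 RPKM for complex I and 2438, 2057 and 2498 for complex V, enclosed the control ASO sums and 2 of the 3 C9orf72 ASO sums, and C9orf72 ASO replicate 3 lay above them. In bulk tissue a change in the number of cells of a type and a change in RNA per cell cannot be told apart.

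**Figure D2:**
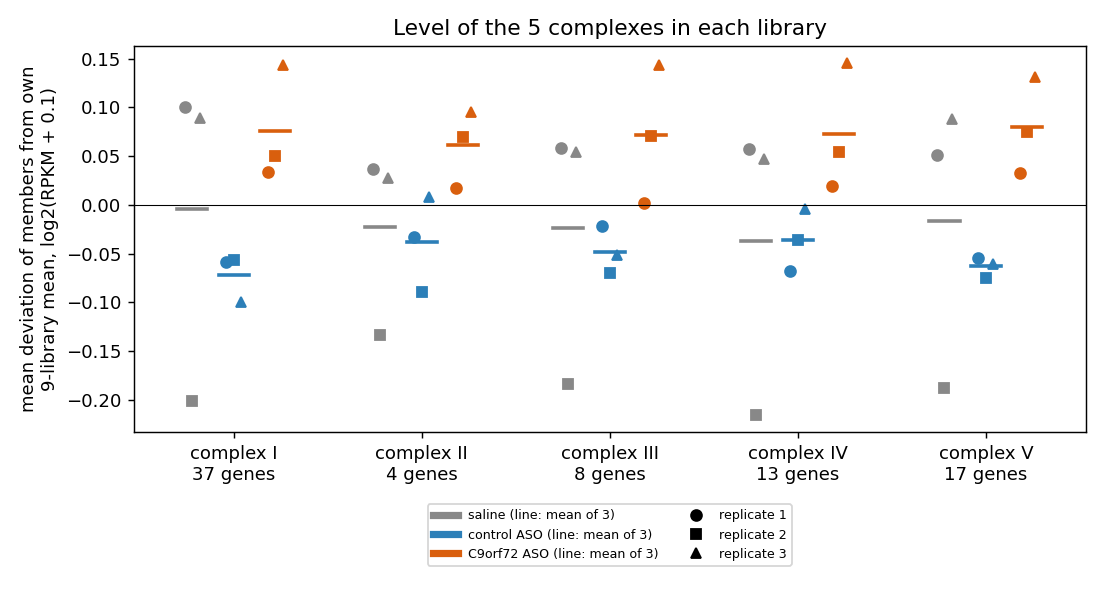
Level of each complex in each library, as the mean over its members of the deviation of log2(RPKM + 0.1) from the member's own 9-library mean (vertical axis), for the 5 complexes (horizontal axis); marker shapes give the replicate and lines the mean of 3. In complex I the control ASO libraries sit at -0.059, -0.056 and -0.100 and the C9orf72 ASO libraries at 0.034, 0.050 and 0.143, and saline replicate 2, at -0.201, is the lowest in every complex.

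On the log scale, where each gene counts equally, the mean deviation of the 79 members from their own 9-library means was 0.075, -0.195 and 0.075 in saline libraries. It was -0.054, -0.060 and -0.065 after the control ASO and 0.027, 0.059 and 0.138 after the C9orf72 ASO. The SD over libraries was 0.156, 0.006 and 0.057 in that order, so that the saline group varied most. The control ASO mean was the lowest of the 3 group means for 54 members, the C9orf72 ASO mean the highest for 69 and the saline mean the highest for 7. C9orf72 ASO replicate 3 was the highest of the 9 libraries for 41 members.

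C9orf72 ASO against control ASO was tested with limma over 14430 genes, and no member passed an adjusted p of 0.05. The smallest adjusted p among members was 0.237 (Sdhb), and 10 genes in all, or 0.0693%, passed. Of the members, 74 had a log2 fold change above 0 and 5 below, with a median of 0.14, while 45.8% of all genes tested were above 0 and their median was -0.014. An unadjusted p under 0.05 was reached by 24 members with higher values (30.4%, against 6.39% of all genes) and by 1 with lower values (against 7.71%). For 39 members (49.4%) all C9orf72 ASO libraries lay above all control ASO libraries, against 10.1% of all genes, and for 1 they lay below, against 11.8%. Such a high share was not particular to the subunits: it was 44.7% for mitochondrial and 79.5% for cytosolic ribosomal protein genes. Leaving out 1 library moved the count of 24 to 14 (control ASO replicate 1 left out, 4.3% of all genes), 9 (its replicate 3 left out, 3.59%) and 13 (replicate 3 of the C9orf72 ASO left out, 6.03%). The count rose to 36 without saline replicate 2 (45.6%, against 8.04% of all genes). With any other library left out it was 16 to 26, beside 3.61% to 6.99% of all genes. With the trend over transcript length described further on removed from each library, it was 11 (13.9%, against 5.87% of all genes), and with only these 2 groups in the fit it was 34 (43.0%, against 7.87%). The members share libraries and vary together, so these counts are not independent observations.

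By complex, the median log2 fold change in this comparison was 0.172 for complex I, 0.140 for complex V, 0.109 for complex IV, 0.108 for complex III and 0.070 for complex II. Non-overlapping higher libraries were found for 22 of 37 genes of complex I, 8 of 17 of complex V, 5 of 13 of complex IV, 3 of 8 of complex III and 1 of 4 of complex II, beside the 10.1% of all genes. Complex I had 0.112 without C9orf72 ASO replicate 3. Complex II, with its 4 genes, had 0.037 without replicate 2 of the control ASO, 0.037 without replicate 3 of the C9orf72 ASO and 0.127 without replicate 3 of the control ASO. No test between complexes was made, since members are not replicates of a condition.

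**Figure D3:**
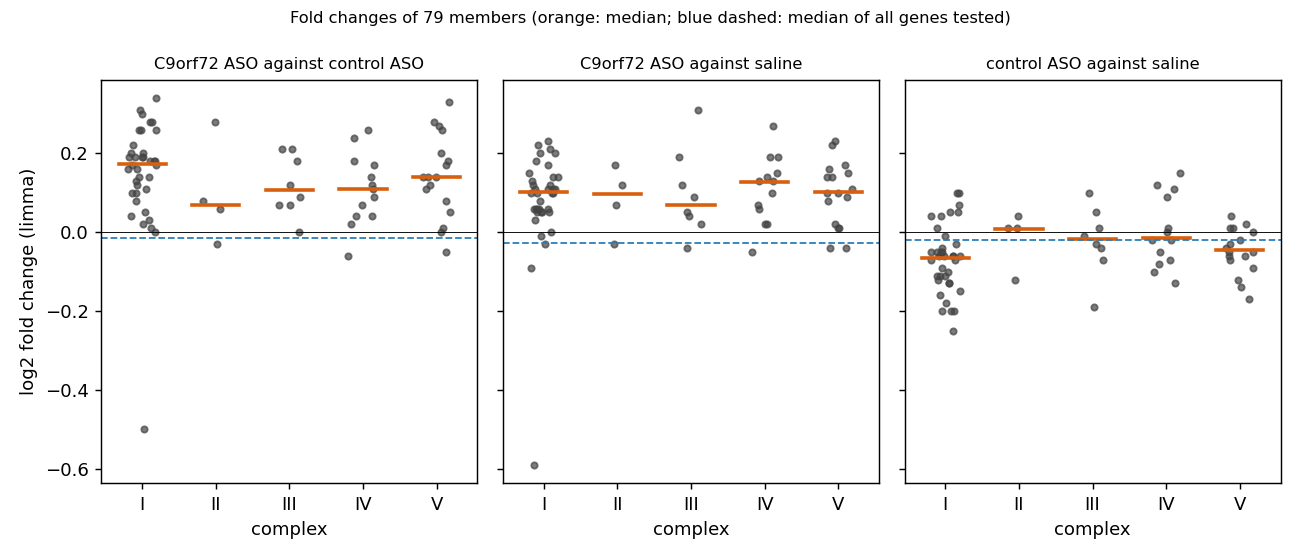
Log2 fold change of each of the 79 members (points, vertical axis) by complex (horizontal axis) in the 3 comparisons, with the median of each complex as an orange line and the median of all genes tested as a dashed line. Against the control ASO the medians run from 0.070 (complex II) to 0.172 (complex I), and the point far below the others in both left panels is Ndufa4l2.

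Against saline, which is a second control for the same C9orf72 ASO libraries and so gives values that share them, no member passed either. The smallest adjusted p was 0.207 (Atp5f1), and 10 genes in all, again 0.0693%, passed. There were 69 members above 0 and 10 below, with a median of 0.103 beside -0.027 for all genes. An unadjusted p under 0.05 was reached by 7 members with higher values (8.86%, against 3.79% of all genes) and 1 with lower values (against 10.2%). Libraries did not overlap for 6 higher members (7.59%, against 5.61%) and for 1 lower member (1.27%, against 12.4%). The medians were 0.127 for complex IV, 0.103 for complex I, 0.102 for complex V, 0.096 for complex II and 0.068 for complex III. This comparison rests in large part on saline replicate 2. Without it the members' median was 0.011, with 43 above 0 and 36 below and 2 at an unadjusted p under 0.05 in each direction (4.08% of all genes higher and 9.57% lower), and the medians of the complexes were -0.010 (I), 0.044 (II), 0.016 (III), 0.022 (IV) and 0.011 (V). Without saline replicate 1 the members' median was 0.155, with 13 higher members at an unadjusted p under 0.05 (4.49% of all genes), and the complexes had 0.155 (I), 0.136 (III) and 0.165 (V). Without saline replicate 3 there were 15 such members (4.02% of all genes), with medians of 0.111 for complex III and 0.157 for complex V. Without C9orf72 ASO replicate 3 there were 2 (4.1% of all genes), with medians of 0.064 for complex I and 0.063 for complex II, and without C9orf72 ASO replicate 1 complex III had 0.136.

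The control ASO against saline gave no member past the threshold, with a smallest adjusted p of 0.794, and 1 gene in all (0.00693%). Here 24 members were above 0 and 55 below, with a median of -0.051 beside -0.020 for all genes. This direction turned when the length trend was removed, with 48 above 0, 31 below and a median of 0.015. An unadjusted p under 0.05 was reached by 0 members with higher values (against 1.37% of all genes) and by 3 with lower values (against 3.98%), which were Ndufa2, Ndufb8 and Ndufb11. Libraries did not overlap for 0 members in either direction, against 3.16% of all genes higher and 7.15% lower. The medians were -0.065 for complex I, -0.046 for complex V, -0.018 for complex III, -0.015 for complex IV and 0.008 for complex II. Without saline replicate 2 the median was -0.131, with 5 members above 0, 74 below and 29 of the latter at an unadjusted p under 0.05 (36.7%, against 9.31% of all genes), and the smallest adjusted p was 0.107. Without saline replicate 1 the median was -0.007 and without saline replicate 3 it was 0.000, with 0 members at an unadjusted p under 0.05 in either direction in both cases. Over all libraries left out in turn, the medians lay between -0.169 and -0.019 for complex I, -0.031 and 0.046 for complex II, -0.079 and 0.015 for complex III, -0.102 and 0.041 for complex IV, and -0.122 and 0.006 for complex V.

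Complex I passes electrons from NADH through a core of flavin and iron-sulfur subunits, surrounded by accessory subunits. All 7 core genes were above 0 against the control ASO, with a median of 0.114 and fold changes from 0.021 to 0.178 (log2), and 5 of the 7 had non-overlapping libraries (10.1% of all genes). Against saline, 4 core genes were above 0 and 3 below, with a median of 0.051. The 10 accessory genes named Ndufb had a median of 0.154 against the control ASO and the other 20 accessory genes one of 0.190.

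Ndufc1, an accessory subunit of the membrane arm, had the highest log2 fold change of all members against the control ASO. Its levels were 31.6, 35.1 and 29.9 RPKM after the control ASO, 42.5, 39.8 and 39.8 after the C9orf72 ASO and 37.0, 28.5 and 39.8 after saline. The ASO groups did not overlap, and the saline libraries reached from below the lowest control ASO value to the lower C9orf72 ASO values. The log2 fold change was 0.34 (SE 0.11, adjusted p = 0.254) relative to the control ASO and 0.23 (SE 0.11, adjusted p = 0.377) against saline.

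Ndufa2, a small accessory subunit with a thioredoxin-like fold, had 48.0, 48.9 and 51.7 RPKM after the control ASO and 61.4, 60.6 and 62.4 after the C9orf72 ASO. Saline replicates 1 and 3, at 62.2 and 61.8, were level with the C9orf72 ASO libraries, and saline replicate 2, at 48.3, was level with the control ASO libraries. The log2 fold change was 0.31 (SE 0.09, adjusted p = 0.239) relative to the control ASO and 0.11 (SE 0.09, adjusted p = 0.630) against saline. Ndufa4 was the most abundant gene of this group, and its product, first described in complex I, is now known as a subunit of complex IV. It had 305, 326 and 288 RPKM after the control ASO, 377, 349 and 376 after the C9orf72 ASO and 362, 286 and 386 after saline, at a log2 difference of 0.26 (SE 0.10, adjusted p = 0.301) against the control ASO. The ASO groups did not overlap and the saline libraries covered both. Counting Ndufa4 in complex IV left the medians against the control ASO at 0.170 for complex I and 0.112 for complex IV.

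Ndufa4l2, a relative of Ndufa4 known to be induced by hypoxia, went the other way. It had 0.515, 0.617 and 0.705 RPKM after the C9orf72 ASO, 0.768, 1.03 and 0.920 after the control ASO and 1.06, 1.05 and 0.807 after saline. All 3 C9orf72 ASO libraries lay below all other 6, which held for no other member and for 5.05% of all genes tested, and all values are close to the bound of 0.5 under which the table holds none. The log2 fold change was -0.50 (SE 0.18, adjusted p = 0.284) relative to the control ASO and -0.59 (SE 0.18, adjusted p = 0.234) against saline. Its share of the Ndufa4 and Ndufa4l2 sum was 0.167% ± 0.0268 (SD, n = 3) after the C9orf72 ASO, 0.295% ± 0.0375 after the control ASO and 0.288% ± 0.0785 after saline. The 5 endothelial markers had a median log2 fold change of -0.65 for the C9orf72 ASO against saline and -0.27 against the control ASO. Of these markers 0 passed the adjusted threshold in either comparison. For the control ASO against saline, the markers had a median of -0.33 and Ndufa4l2 had -0.09 (log2, SE 0.18). The marker sum overlapped between the ASO groups, at 34.8 to 38.1 RPKM after the C9orf72 ASO and 32.1 to 44.6 after the control ASO. The Ndufa4l2 values of these groups did not overlap, and the part of the markers in them was not tested. Ndufa6, an accessory subunit of the LYR motif family, had 149, 147 and 167 RPKM after the C9orf72 ASO, 131, 128 and 123 after the control ASO and 145, 110 and 144 after saline. All C9orf72 ASO libraries lay above the others, the closest pair being 147 and 145 RPKM, and the log2 fold change against the control ASO was 0.28 (SE 0.10, adjusted p = 0.282).

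**Figure D4:**
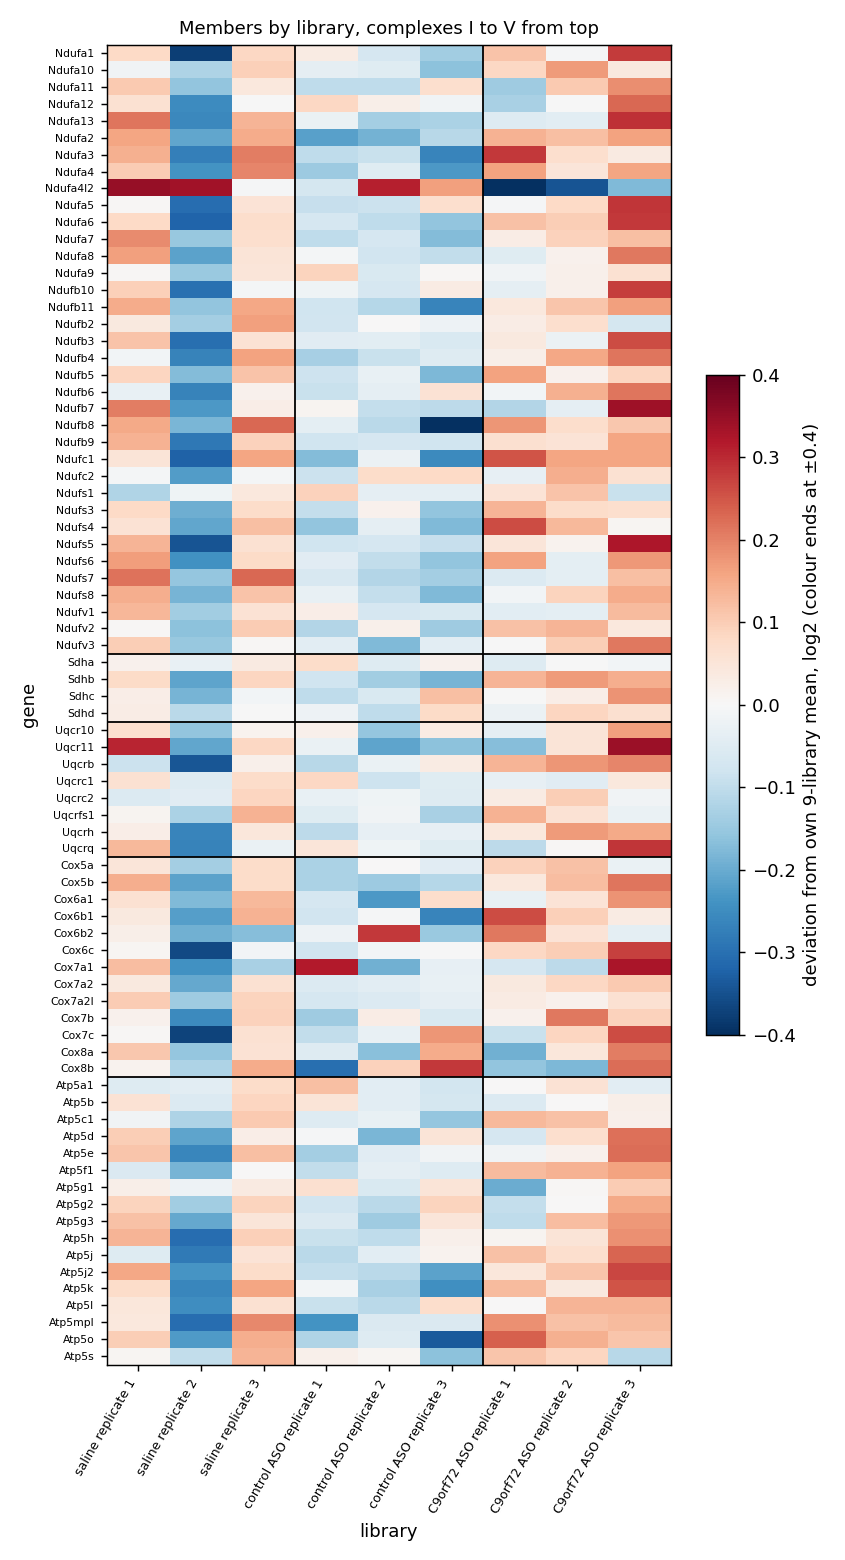
Deviation of each member from its own 9-library mean on the log2 scale (colour, blue below and red above, ends at ±0.4), with 78 members as rows from complex I at the top to complex V and the 9 libraries as columns. Saline replicate 2 is blue in every row but that of Ndufa4l2, the 3 control ASO columns are mostly pale blue, and Ndufa4l2 runs against the other rows.

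Complex II oxidises succinate in the tricarboxylic acid (TCA) cycle, with Sdha and Sdhb as its catalytic flavin and iron-sulfur subunits and Sdhc and Sdhd as its membrane anchors. Sdhb had 70.2, 67.3 and 65.2 RPKM after the control ASO, 81.4, 83.4 and 82.0 after the C9orf72 ASO and 78.2, 64.0 and 78.7 after saline. The C9orf72 ASO libraries lay close together and above all others. The log2 fold change was 0.28 (SE 0.08, adjusted p = 0.237) relative to the control ASO and 0.17 (SE 0.08, adjusted p = 0.373) against saline. Its partner Sdha had 157, 144 and 151 RPKM after the control ASO, 144, 149 and 148 after the C9orf72 ASO and 151, 146 and 153 after saline. The groups overlapped throughout, and its log2 fold change was -0.03 (SE 0.06, adjusted p = 0.819) against the control ASO. The anchors lay in between. Sdhc had 27.8, 28.6 and 32.4 RPKM after the control ASO, 29.8, 30.4 and 33.8 after the C9orf72 ASO and 30.4, 26.2 and 29.6 after saline (log2 fold change against the control ASO 0.08, SE 0.08, adjusted p = 0.656). Sdhd had 43.7, 41.3 and 46.8, then 43.6, 47.1 and 46.4, and 45.3, 41.2 and 44.3 in the same order (0.06, SE 0.06, adjusted p = 0.703). For both anchors the groups overlapped.

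Complex III has as its core proteins Uqcrc1 and Uqcrc2, the Rieske iron-sulfur protein Uqcrfs1 and small subunits. The 5 small subunits had a median log2 fold change of 0.178 against the control ASO, the 2 core proteins one of 0.038, and Uqcrfs1 had 0.12 (SE 0.08, adjusted p = 0.471). Uqcrb, a ubiquinone-binding small subunit, had 182, 193 and 201 RPKM after the control ASO, 216, 222 and 225 after the C9orf72 ASO and 185, 155 and 199 after saline. All C9orf72 ASO libraries lay above all others, at a log2 difference of 0.21 (SE 0.09, adjusted p = 0.326) relative to the control ASO and 0.31 (SE 0.09, adjusted p = 0.208) against saline. Uqcrh, the hinge protein and the most abundant gene of the complex, had 252, 265 and 265 RPKM after the control ASO, 279, 305 and 301 after the C9orf72 ASO and 276, 226 and 280 after saline. The ASO groups did not overlap, and 2 saline libraries sat at the lower edge of the C9orf72 ASO values (log2 fold change against the control ASO 0.18, SE 0.08, adjusted p = 0.370). Uqcr11, the smallest subunit, had 30.6, 26.9 and 27.8 RPKM after the control ASO and 27.7, 32.3 and 39.5 after the C9orf72 ASO, with 38.5, 27.0 and 33.0 after saline. Its fold change of 0.21 (SE 0.14, adjusted p = 0.496) is as high as that of Uqcrb, but its groups overlapped. Uqcrc1 had 95.7, 85.3 and 87.5 RPKM after the control ASO, 88.4, 87.7 and 93.0 after the C9orf72 ASO and 94.4, 87.3 and 95.1 after saline, which overlap (adjusted p = 0.984).

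Complex IV reduces oxygen, and several of its nuclear subunits exist as a ubiquitous and a tissue isoform. The 10 ubiquitous genes were all above 0 against the control ASO, with a median of 0.128, and the 3 isoform genes known from muscle or testis (Cox7a1, Cox8b and Cox6b2) had one of 0.020. Cox5b, the most abundant member of all and a zinc-binding subunit, had 416, 411 and 420 RPKM after the control ASO, 468, 495 and 527 after the C9orf72 ASO and 502, 392 and 478 after saline. The ASO groups did not overlap while saline spanned nearly both (log2 fold change against the control ASO 0.26, SE 0.09, adjusted p = 0.273). Cox6a1, the non-muscle form of subunit VIa, had 150, 134 and 165 RPKM after the control ASO, 154, 163 and 178 after the C9orf72 ASO and 164, 139 and 172 after saline, with overlapping groups. Cox6c, a small subunit, had 177, 179 and 202 RPKM after the C9orf72 ASO, 158, 166 and 167 after the control ASO and 168, 130 and 166 after saline. Its C9orf72 ASO libraries lay above all others, with values of 0.18 (log2, SE 0.10, adjusted p = 0.420) relative to the control ASO and 0.27 (log2, SE 0.10, adjusted p = 0.263) against saline.

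The tissue isoforms made up a small part of each pair. Cox7a2, the general form, had 121, 122 and 123 RPKM after the control ASO, 129, 133 and 135 after the C9orf72 ASO and 129 and 131 in saline replicates 1 and 3, and saline replicate 2 was the lowest of all 9 libraries. Cox7a1, the heart and muscle form, had 7.89, 5.51 and 6.16 RPKM after the control ASO, 6.02, 5.86 and 7.93 after the C9orf72 ASO and 6.88, 5.32 and 5.76 after saline. Its share of the pair was 5.06% ± 0.934 (SD, n = 3), 4.75% ± 0.711 and 4.64% ± 0.417 in that order, so the groups did not differ beyond their spread. Cox8a had 129, 119 and 148 RPKM after the control ASO, 117, 138 and 154 after the C9orf72 ASO and 144, 120 and 139 after saline. Cox8b, the muscle form, had 0.727, 0.985 and 1.14 RPKM after the control ASO, 0.814, 0.799 and 1.09 after the C9orf72 ASO and 0.930, 0.835 and 1.03 after saline. The 2 Cox8 genes overlapped between groups, and Cox8b made up 0.559% to 0.821% of the pair. Cox6b1, the general form of subunit VIb, had 190, 200 and 167 RPKM after the control ASO, 240, 214 and 205 after the C9orf72 ASO and 206, 172 and 221 after saline. Its ASO groups did not overlap. Cox6b2, the testis form, had 2.13, 2.65 and 1.94, then 2.52, 2.25 and 2.1, and 2.2, 1.88 and 1.91 in the same order, with overlapping groups, and made up 0.858% to 1.31% of the pair.

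Complex V makes ATP in its F1 head, driven by a ring of c subunits in the membrane and held by a peripheral stalk. The 4 stalk genes had a median log2 fold change of 0.193 against the control ASO and 0.190 against saline. The 5 head genes had 0.120 and 0.087, the 3 c ring genes 0.051 and 0.005, and the other 5 genes 0.262 and 0.143. These last include Atp5s, named Dmac2l in RefSeq, which is placed in complex V by its symbol alone. Atp5f1, subunit b of the stalk, had 184, 192 and 190 RPKM after the control ASO, 215, 217 and 220 after the C9orf72 ASO and 189, 173 and 197 after saline. Its C9orf72 ASO libraries lay close together and above all others. The log2 fold change was 0.20 (SE 0.06, adjusted p = 0.248) relative to the control ASO and 0.22 (SE 0.06, adjusted p = 0.207) against saline. Atp5o, the stalk subunit that confers oligomycin sensitivity, had the highest fold change of the complex. It had 75.5, 79.3 and 65.1 RPKM after the control ASO, 96.9, 90.6 and 88.8 after the C9orf72 ASO and 87.9, 70.2 and 90.8 after saline. The ASO groups did not overlap, at a log2 difference of 0.33 (SE 0.10, adjusted p = 0.247). Atp5j, a further stalk subunit, had 145, 140 and 157 RPKM after the C9orf72 ASO, 124, 130 and 135 after the control ASO and 129, 110 and 139 after saline, and all C9orf72 ASO libraries lay above the others, the closest pair being 140 and 139.

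The head gene Atp5b, the catalytic beta subunit and the most abundant gene of the complex, had 352, 330 and 323 RPKM after the control ASO, 327, 340 and 345 after the C9orf72 ASO and 353, 327 and 360 after saline. Its groups overlapped, at a log2 difference of 0.01 (SE 0.06, adjusted p = 0.963) against the control ASO. The c ring is encoded by 3 genes for the same mature protein. Atp5g3 had 226, 213 and 243 RPKM after the control ASO, 219, 256 and 265 after the C9orf72 ASO and 255, 204 and 243 after saline. Atp5g2 had 53.2, 52.0 and 59.6, then 52.5, 56.1 and 62.3, and 59.7, 50.9 and 59.6 in the same order. Atp5g1 had 24.0, 22 and 23.8, then 20, 23.0 and 24.6, and 23.3, 22.6 and 23.5, and was the lowest member of the complex by fold change (-0.05, SE 0.07, adjusted p = 0.779). All 3 overlapped between groups. Atp5g3 held 75.6% ± 0.678 (SD, n = 3) of the c ring sum after the C9orf72 ASO, 74.4% ± 0.151 after the control ASO and 74.5% ± 0.947 after saline.

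Across the 9 libraries the members moved together. The median Pearson correlation of the 3081 pairs of members, on the log2 scale, was 0.62. It was 0.66 for pairs within a complex and 0.60 for pairs from different complexes. Complex I, with 666 of the 914 pairs within a complex, had 0.69, while complexes II, III, IV and V had 0.44, 0.56, 0.54 and 0.59, below the value for pairs from different complexes. The pairs share the same 9 libraries and their length trend, so these are descriptions. Most like the mean of the other members were Ndufb9 (r = 0.98) and Cox7a2 (0.97), and least like it Ndufa4l2 (-0.51), Ndufs1 (-0.11) and Sdha (0.13).

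Transcript length moved with these levels. Union exon length, from the GENCODE M21 annotation, had a median of 971 bases for the members and 3337 for the genes tested. With those genes in 5 equal classes of length, 68 of the 79 members are in the shortest class (up to 1829 bases) and 0 in the longest (from 5580 bases). In genes outside the list, the slope of a gene's deviation on log2 length was -0.0606, 0.0632 and -0.0314 per doubling in the saline libraries. It was 0.0301, 0.0302 and 0.0383 after the control ASO and -0.0243, -0.0081 and -0.0375 after the C9orf72 ASO. The libraries with slopes above 0 are those in which the members ran low. Among the others the sizes differed: saline replicate 1, with -0.0606, had members at a mean deviation of 0.075, and C9orf72 ASO replicate 3, with -0.0375, at 0.138. In C9orf72 ASO replicate 2 the median of the shortest class lay at -0.004 and the members at 0.059. Against the control ASO the genes outside the list had a median log2 fold change of 0.087 in the shortest class and -0.085 in the longest.

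For its removal, the length trend was fitted in each library over all 13970 tested genes with a length, the members included. Part of a difference shared by the members is therefore removed with it. With the length trend removed, the members' median against the control ASO was 0.016, with 46 above 0 and 33 below. Against saline it was 0.041, with 58 above and 21 below. The smallest adjusted p was 0.262 against the control ASO and 0.123 against saline. An unadjusted p under 0.05 was reached against saline by 9 members with higher values (11.4%, against 7.49% of all genes), and for the control ASO against saline by 5 with higher (6.33%, against 3.16%) and 3 with lower values (3.8%, against 2.93%). On that scale Sdhb had 0.18 (adjusted p = 0.264) against the control ASO, Ndufc1 0.25 (0.3), Atp5o 0.19 (0.362), Atp5f1 0.14 (0.314) and Ndufa4l2 -0.63 (0.262). Others described above came closer to 0: Uqcrb had 0.02, Uqcrh -0.01, Uqcr11 0.00, Cox6c 0.07, Atp5j 0.08, Ndufa4 0.09, Ndufa6 0.11, Cox5b 0.12 and Ndufa2 0.13 in log2 fold change. Atp5f1 had 0.22 against saline, the value it also had without that step. Against the control ASO the median was then 0.054 for complex I, 0.033 for complex II, 0.016 for complex V, 0.010 for complex III and -0.044 for complex IV, so that complex II moved from the lowest to the second place. Against saline it was 0.083 for complex II, 0.051 for complex I, 0.047 for complex III, 0.027 for complex V and 0.018 for complex IV. For the control ASO against saline it was 0.054 for complex IV, 0.052 for complex II, 0.050 for complex III, 0.025 for complex V and -0.004 for complex I. What produced the length trend was not tested.

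**Figure D5:**
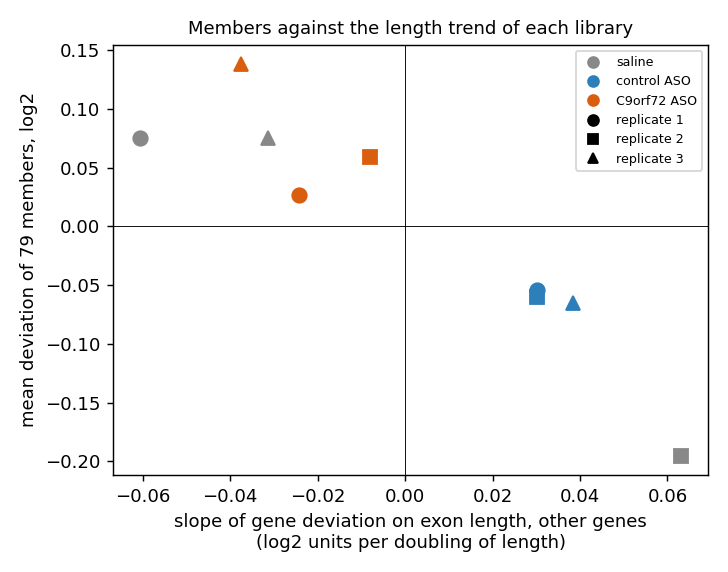
Mean deviation of the 79 members (vertical axis, log2) against the slope of gene deviation on exon length in all other genes of the same library (horizontal axis, log2 units per doubling of length), 1 point per library, with colour for the group and shape for the replicate. The 3 control ASO libraries and saline replicate 2 have slopes of 0.0301 to 0.0632 and member means below 0, and the other 5 have slopes below 0 and member means above 0.

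Other genes of mitochondrial energy metabolism were read the same way, and none of the lists below held a gene past the adjusted threshold in any comparison. Of 5 carriers and subunits that the symbol rule leaves out, 3 were above 0 against the control ASO, with a median of 0.130. Cox4i1, the general form of complex IV subunit 4, had 341, 331 and 341 RPKM after the control ASO and 379, 382 and 404 after the C9orf72 ASO, which did not overlap (log2 fold change 0.20, SE 0.08, adjusted p = 0.318). Ndufab1, the mitochondrial acyl carrier protein and a complex I subunit, had 21.6, 22.9 and 21.9 against 24.7, 25.4 and 24.4 (0.17, SE 0.07, adjusted p = 0.316). Of 48 assembly factors, 46 were in the table, with 36 above 0 and a median of 0.069. Ndufaf2, an assembly factor of complex I, had 57.1, 62.5 and 59.0 RPKM after the C9orf72 ASO, 51.5, 53.9 and 46.0 after the control ASO and 50.3, 40.7 and 49.3 after saline. Its C9orf72 ASO libraries lay above the others, at a log2 difference of 0.35 (SE 0.09, adjusted p = 0.173) against saline. Sdhaf4, which helps to assemble Sdha into complex II, had 25.5, 27.3 and 27.7 against 20.7, 21.9 and 23.0 after the control ASO (0.29, SE 0.08, adjusted p = 0.234).

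Of 11 transcription regulators of these genes, 2 were above 0 and 9 below against the control ASO, with a median of -0.077. Ppargc1b, a coactivator of mitochondrial genes, had 3.72, 2.98 and 3.98 RPKM after the control ASO and 2.62, 3.0 and 2.5 after the C9orf72 ASO, which overlap (log2 fold change -0.38, SE 0.12, adjusted p = 0.248). Nfe2l2, the oxidative stress factor NRF2, had 9.62, 11.3 and 9.64 against 11.7, 11.9 and 12.1 (0.22, SE 0.07, adjusted p = 0.249). Of 16 TCA cycle and pyruvate dehydrogenase genes, 9 were above 0, with a median of 0.011. Among them Pdhb, of pyruvate dehydrogenase, had 70.1, 71.0 and 67.0 against 80.8, 78.2 and 75.1 (0.17, SE 0.06, adjusted p = 0.285), and Fh1, fumarase, had 34.7, 33.2 and 30.6 against 37.0, 37.8 and 35.7 (0.17, SE 0.07, adjusted p = 0.316). Of 14 carriers, porins and import genes 13 were in the table, 9 above 0, with a median of 0.059. The import channel gene Timm23 had 0.16 (SE 0.06, adjusted p = 0.304), and Tomm70a, an import receptor, had -0.07 (SE 0.06, adjusted p = 0.629). Tomm70a had its smallest p in the control ASO against saline, with 0.14 (SE 0.06, adjusted p = 0.794).

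Ribosomal protein genes are short and abundant as well. The 76 mitochondrial ribosomal protein genes had a median log2 fold change of 0.136 against the control ASO, with 68 above 0. Higher libraries did not overlap for 34 of them (44.7%, against 10.1% of all genes). An unadjusted p under 0.05 (limma) with higher values was reached by 22 (28.9%, against 6.39%). Mrpl30 had 20.5, 20.6 and 19.5 RPKM after the control ASO and 25.9, 25.9 and 24.6 after the C9orf72 ASO (0.33, SE 0.06, adjusted p = 0.115), and Mrpl22 had 0.31 (SE 0.08, adjusted p = 0.200). Without saline replicate 2, Mrpl30 had an adjusted p of 0.0476 at an unchanged direction. All 73 cytosolic ribosomal protein genes were above 0, with a median of 0.221. Of these, 58 (79.5%) had non-overlapping higher libraries and 43 (58.9%) an unadjusted p under 0.05 (limma). Rpl32 had 166, 169 and 161 RPKM against 216, 206 and 224 (0.38, SE 0.10, adjusted p = 0.234), and Rpl39 had 0.27 (SE 0.09, adjusted p = 0.272). Rpl32 had an adjusted p of 0.0420 without saline replicate 2. Per library, the cytosolic ribosomal genes had mean deviations of 0.118, -0.238 and 0.124 after saline, -0.110, -0.067 and -0.166 after the control ASO and 0.116, 0.066 and 0.157 after the C9orf72 ASO. That is the order of libraries seen for the subunits in so far as saline replicate 2 was lowest, the control ASO libraries came next and C9orf72 ASO replicate 3 was highest.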

How the data were processed

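RNA levels of 9 spinal cord libraries were read from 1 deposited table. The libraries were strand-specific and made from Trizol-extracted total RNA, per the labels' protocols, and the submitters' processing notes name cutadapt 1.2.1, GSNAP and the build mm9. Which counter and annotation were used is not given in the sources used here, and the header states no unit. The unit of the deposited values, RPKM computed by the authors, was inferred from their distribution, and each value under 0.5 stands at 0.1 (5160 values). Symbols matched 14321 of 14831 gene IDs.

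The 9 libraries were fitted together with limma 3.58.1 (R 4.3.3, statmod 1.5.0; mean trend, robust) on log2(RPKM + 0.1), for 14430 genes with 0.5 or more in at least 3 libraries (401 removed), with Benjamini-Hochberg adjustment over all of them, two-sided, at 0.05. Fold changes are on this scale, which understates changes of low genes. The test was tested on simulated data. Members and lists were chosen with earlier results of these data known. The target, all complex II and c ring genes and the complex IV isoform pairs were given with all values, except Cox7a2 in saline replicate 2. So were, per complex, the members with the highest and lowest fold change against the control ASO, the smallest p and the highest level. Members with all C9orf72 ASO libraries above all others were added after their values were seen. Of other lists, the 2 genes with the smallest p over the 3 comparisons were named. Alternatives covered the test setting, filter, pseudocount, scaling, floor values, groups in the fit, length trend, the assignment of Ndufa4 and each library left out. Gene positions other than RefSeq promoters are not used here. A single member is counted throughout but not reported by name here.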

Additional observations from a re-analysis of the deposited data

How the results depend on the processing

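No member passed the adjusted threshold under any of the alternatives run, and the smallest adjusted p for C9orf72 ASO against control ASO was 0.0541 (without saline replicate 2) and 0.0873 with only the 2 groups compared. Under the latter, 34 members with higher values had an unadjusted p under 0.05 (43.0%, against 7.87% of all genes). Removing the length trend moved the median log2 fold change against the control ASO to 0.016 for all members, 0.054 for complex I, 0.010 for complex III, -0.044 for complex IV and 0.016 for complex V, and against saline to 0.018 for complex IV. It turned the members' median for the control ASO against saline to 0.015, while the other medians are given with the length trend. The cause was not tested. With 1 library left out, the medians against saline ran from -0.010 to 0.155 for complex I, from 0.022 to 0.170 for complex IV and from 0.011 to 0.165 for complex V. In all 3 the lowest value came without saline replicate 2 and the highest without saline replicate 1. Pseudocount, filter, scaling and floor alternatives left the members' medians within the spread between replicates, from 0.123 to 0.150 against the control ASO. Among 93 single genes other than the target, 4755 alternative values kept their direction and side of the threshold, 265 changed sign without a call, and 2 (Mrpl30 and Rpl32, without saline replicate 2) gained a call. C9orf72 kept its call. Median log ratio scaling subtracts the median deviation of each library, which ran from -0.023 to 0.043. It could therefore move the medians of all genes only a little. No paired analysis was possible because the labels give no replicate numbers. Ndufa4l2 and Cox8b lay near the lower bound of the table, and whether depth limited the values of the other members was not tested.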
